A study of Mus musculus with 8 samples.

Results

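The Trmt and Mettl genes are 2 families of methyltransferase genes, named for tRNA methyltransferases and for methyltransferase-like proteins. Members were chosen by gene symbol among the probe sets that name a single gene, and where a gene had several such probe sets the brightest on average across the 8 arrays stood for it. This gave 39 of the 22180 genes measured, 15 Trmt and 24 Mettl genes. Measured values thus entered only the choice of a probe set (1 gene, Mettl9, had 2), but the families were put forward with results of this comparison known.

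Expression was measured on 8 arrays of CD103+ CD11b+ conventional dendritic cells (cDC), which present intestinal antigen to T cells in the mesenteric lymph nodes and were sorted from these nodes by flow cytometry. All animals were male C57BL6 mice aged 8 weeks on control chow, and 4 arrays came from wild-type mice and 4 from littermates with the hBcl-2 transgene, human BCL2 driven by the CD11c promoter. That promoter is active in CD11c+ cells generally, so the transgene is not limited to the sorted subset. RNA on an array was pooled from 2 to 3 samples of a genotype, and all errors below are over n = 4 pools per group. The labels do not say how animals were divided among the pools, so a p-value measures the spread between pools. The question the design asks is how these cells differ between mice with and without the transgene for the survival protein BCL2.

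Transfer RNAs carry more chemical marks than other RNAs, and many are methyl groups placed by TRMT enzymes on bases that shape the fold of the tRNA or its reading of codons. METTL proteins share a fold that binds the methyl donor S-adenosylmethionine, but their substrates differ. METTL3 and METTL14 form the enzyme that writes N6-methyladenosine (m6A) on mRNA, a mark known in dendritic cells to bear on mRNA stability and translation, while other members methylate tRNA, rRNA or proteins. The families are therefore not all RNA methyltransferases: of the 24 Mettl genes measured, 8 are listed here as protein methyltransferases, 3 as Mettl7 membrane proteins and 4 have no role assigned.

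Trmt2a, which encodes the enzyme that methylates a uridine in the T loop of cytosolic tRNAs, was the only one of the 39 genes that passed the test over all genes, and it was higher in transgenic cDC. Its level (log2 of the array signal, as are all levels here) was 8.23, 8.54, 8.25 and 8.76 on wild-type replicates 1 to 4 and 9.14, 9.32, 9.24 and 9.31 on transgenic replicates 1 to 4. Every transgenic array lay above every wild-type array, and the transgenic arrays lay closer together. Trmt2a rose 1.75-fold, from 8.45 ± 0.25 to 9.25 ± 0.08 (SD, n = 4), a log2 difference of 0.81 (SE 0.14, 95% interval 0.50 to 1.11, adjusted p = 0.0204 with limma and Benjamini-Hochberg adjustment over 22180 genes). The call was near the threshold. It was lost on leaving out wild-type replicate 1, 2 or 3, where limma gave an adjusted p of 0.0649, 0.0564 and 0.0705, or transgenic replicate 2 (0.0546), and without variance moderation (0.103), while the log2 difference stayed between 0.73 and 0.91. As the samples are bulk pools, a change in the mix of cells and a change of RNA per cell cannot be told apart.

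**Figure D1:**
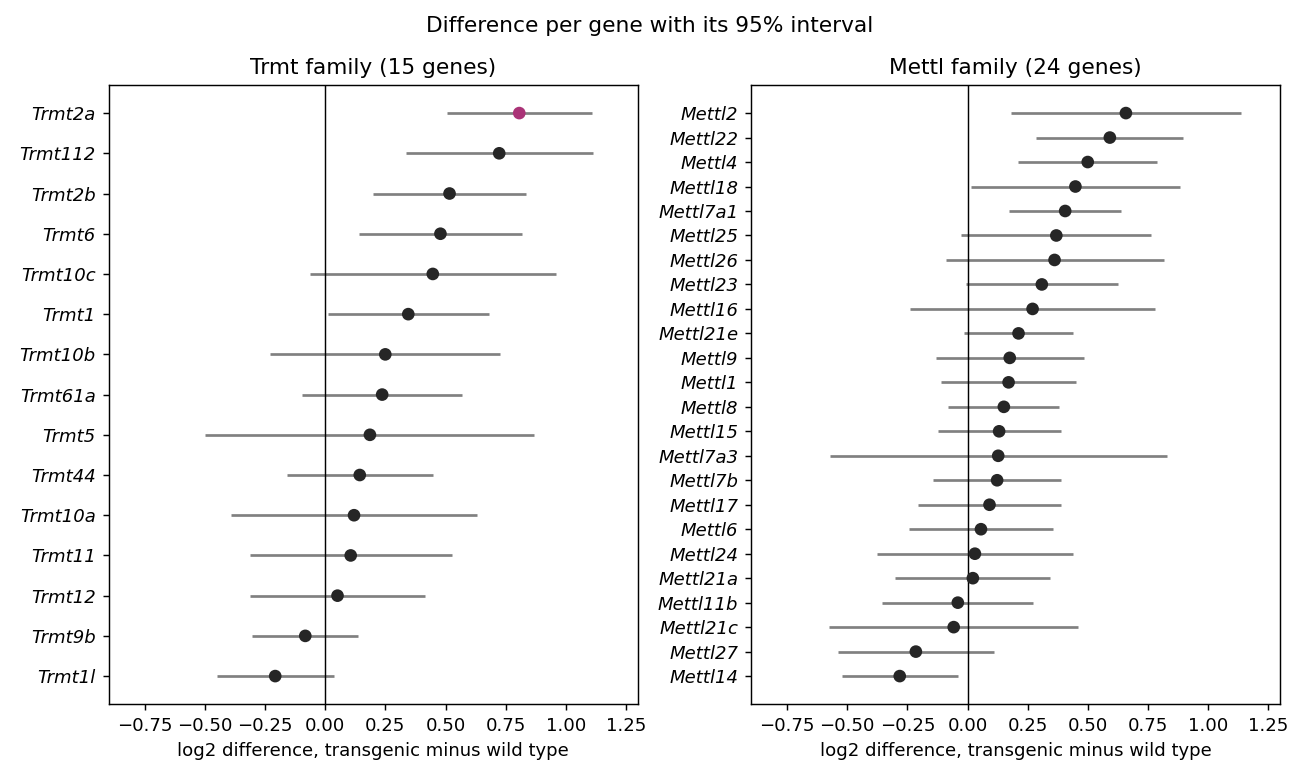
Log2 difference, transgenic minus wild type, of each gene of both families (points) with its 95% interval (bars), ordered by size. Trmt2a, at 0.81 (coloured), was the only gene past the threshold, and 13 of 15 Trmt and 20 of 24 Mettl genes lay above 0.

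Of the 15 Trmt genes, 1 rose, 0 fell and 14 did not pass, beside 1.69% of all genes that passed in either direction (0.839% rose and 0.848% fell). Of the 24 Mettl genes, 0 rose and 0 fell by limma, and at an unadjusted p below 0.05 the counts were 5 higher and 1 lower. In the Trmt family 5 were higher and 0 lower at that unadjusted level. Over all genes that level held 6.56% higher and 6.60% lower. The 3 Trmt genes whose transgenic arrays all lay above the wild-type arrays were Trmt2a, Trmt112 and Trmt2b, and the 5 such Mettl genes were Mettl2, Mettl22, Mettl4, Mettl7a1 and Mettl21e, beside 4.00% of all genes. Mettl14 was the only member with all transgenic arrays below the wild-type arrays, beside 4.94% of all genes.

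The promoters of the 6 of these 8 higher genes with an entry in the RefSeq table (GRCm38.p6) are shown, because these members moved the same way on all arrays. Each window runs from 250 bases before to 50 bases after the annotated start. Capitals mark matches, on either strand, to CCAAT (the CCAAT box), CCGGAAGT (an ETS site) or CACGTG (the E-box bound by MYC and related factors), motifs picked as common promoter elements.
Trmt2a (chr16:18248633-18248932, plus strand): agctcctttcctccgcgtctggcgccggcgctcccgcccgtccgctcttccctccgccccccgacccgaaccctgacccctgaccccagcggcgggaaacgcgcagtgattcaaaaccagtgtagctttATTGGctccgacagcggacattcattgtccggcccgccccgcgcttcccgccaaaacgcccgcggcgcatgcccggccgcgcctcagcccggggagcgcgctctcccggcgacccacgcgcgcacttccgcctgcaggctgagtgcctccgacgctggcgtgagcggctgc
Trmt112 (chr19:6909448-6909747, plus strand): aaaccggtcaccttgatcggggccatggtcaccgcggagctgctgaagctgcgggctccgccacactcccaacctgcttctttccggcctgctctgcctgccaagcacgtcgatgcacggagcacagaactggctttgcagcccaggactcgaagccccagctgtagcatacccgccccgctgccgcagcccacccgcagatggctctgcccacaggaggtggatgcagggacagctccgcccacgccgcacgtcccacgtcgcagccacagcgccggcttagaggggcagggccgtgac
Trmt2b (chrX:134276935-134277234, minus strand): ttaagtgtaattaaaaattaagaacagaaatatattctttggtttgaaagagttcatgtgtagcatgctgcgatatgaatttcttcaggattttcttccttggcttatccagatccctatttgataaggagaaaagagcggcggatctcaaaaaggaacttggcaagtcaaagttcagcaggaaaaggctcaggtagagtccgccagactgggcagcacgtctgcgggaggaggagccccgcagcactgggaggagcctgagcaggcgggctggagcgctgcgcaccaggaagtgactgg
Mettl22 (chr16:8470563-8470862, plus strand): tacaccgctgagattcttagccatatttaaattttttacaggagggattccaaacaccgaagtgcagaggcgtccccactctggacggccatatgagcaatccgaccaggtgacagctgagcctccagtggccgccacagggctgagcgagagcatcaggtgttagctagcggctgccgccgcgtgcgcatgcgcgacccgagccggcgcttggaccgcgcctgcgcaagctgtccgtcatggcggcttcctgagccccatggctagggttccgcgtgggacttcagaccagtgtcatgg
Mettl4 (chr17:94749970-94750269, minus strand): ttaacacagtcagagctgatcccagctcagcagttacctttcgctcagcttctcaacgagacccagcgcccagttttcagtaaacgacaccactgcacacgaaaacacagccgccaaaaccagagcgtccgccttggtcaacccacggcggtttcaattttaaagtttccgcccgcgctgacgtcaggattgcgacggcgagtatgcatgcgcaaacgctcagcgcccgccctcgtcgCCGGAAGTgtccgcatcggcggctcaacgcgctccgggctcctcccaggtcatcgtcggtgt
Mettl7a1 (chr15:100304567-100304866, plus strand): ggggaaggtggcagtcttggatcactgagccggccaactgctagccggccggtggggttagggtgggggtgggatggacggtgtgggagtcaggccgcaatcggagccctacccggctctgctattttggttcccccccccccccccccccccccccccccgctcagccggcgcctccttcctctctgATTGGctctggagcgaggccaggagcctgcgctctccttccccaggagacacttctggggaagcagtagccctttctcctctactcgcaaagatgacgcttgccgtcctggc
The Trmt2a and Mettl7a1 windows each held 1 CCAAT match, the Mettl4 window 1 ETS match, and the other 3 windows held none of the 3 motifs. Over all 32851 promoters of this length, 37.4% held CCAAT, 3.89% CCGGAAGT and 7.15% CACGTG. Windows were counted in the same way, and a gene can have several. CCGGAAGT was found in 3 of 13 Trmt and 4 of 19 Mettl windows. CACGTG was in 2 of 13 and 1 of 19, and CCAAT in 3 of 13 and 9 of 19. Overlapping windows of Mettl6 each held CCGGAAGT and CCAAT. By gene, CCGGAAGT was in 3 of 11 Trmt and 3 of 18 Mettl genes, and CCAAT in 3 of 11 and 8 of 18. The Trmt2a window was 72.0% G and C and the Trmt2b window 48.7%, while the median over all promoters was 52.7%. These matches are letters in a window and were not tested for binding.

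The other enzyme of the same tRNA uridine, Trmt2b, which acts in mitochondria, was at 6.56, 6.69, 6.35 and 6.97 in wild type and at 7.03, 7.34, 7.11 and 7.16 in transgenic cDC. The groups did not overlap, although wild-type replicate 4 came within reach of the lowest transgenic array. The log2 difference was 0.52 (SE 0.14, 95% interval 0.20 to 0.84) and did not pass limma's test (adjusted p = 0.118). Trmt112 encodes the small activator protein that several methyltransferases of tRNA, rRNA and proteins need as a partner. Its level was 7.55, 7.86, 7.31 and 8.05 in wild type and 8.15, 8.66, 8.33 and 8.51 in transgenic cDC. Again all transgenic arrays were the higher ones, and wild-type replicate 4 was the nearest. The log2 difference of 0.72 (SE 0.18, 95% interval 0.33 to 1.11) did not pass (limma adjusted p = 0.0755), and it passed when only genes with a mean of at least 6 were tested (limma adjusted p = 0.0462). Its partner Trmt11, which methylates a guanine of the tRNA D arm, was at 4.49 ± 0.34 and 4.60 ± 0.27 (SD, n = 4), a difference within that spread.

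Trmt6 and Trmt61a encode the subunits of the enzyme that methylates an adenine in the T loop, with the catalytic site in TRMT61A. Trmt6 was at 6.98, 7.47, 6.88 and 6.96 in wild type and at 7.46, 7.75, 7.66 and 7.33 in transgenic cDC. Wild-type replicate 2 stood above the lower pair of transgenic arrays, so the groups overlapped, and the difference of 0.48 (SE 0.15) did not pass (limma adjusted p = 0.175). Trmt61a differed by 0.24 (SE 0.15), with 4.29 to 4.58 in wild type and 4.54 to 5.11 in transgenic cDC, and transgenic replicate 4 alone gave the value above the wild-type range.

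**Figure D2:**
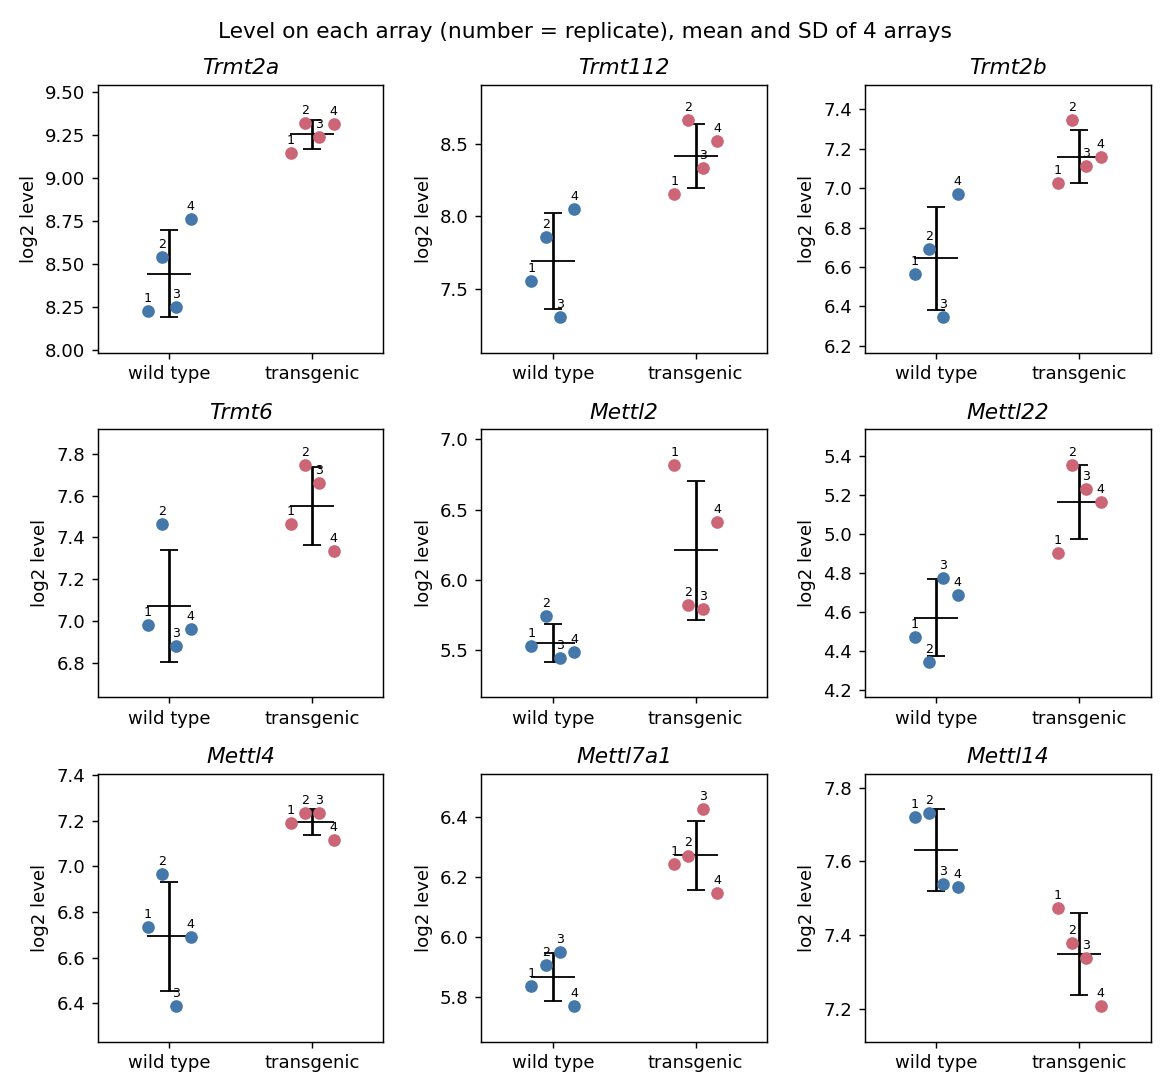
Log2 level on each array for 9 members (points, numbered by replicate), with the mean and SD of each group of 4 arrays; the vertical axes differ between panels and do not start at 0. Trmt2a, Trmt112, Trmt2b, Mettl2, Mettl22, Mettl4 and Mettl7a1 had all transgenic arrays above wild type, Mettl14 had all of them below, and Trmt6 overlapped; only Trmt2a passed the test over all genes.

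The Trmt10 methyltransferases, which act on tRNA, include Trmt10c, which is also a subunit of the mitochondrial enzyme that trims tRNA precursors. It was at 6.95 ± 0.36 and 7.40 ± 0.42 (SD, n = 4), and its 95% interval of -0.06 to 0.96 spans 0. Trmt10b and Trmt10a differed by 0.25 (SE 0.22) and 0.12 (SE 0.23). Trmt1, which places a double methyl group on a guanine between the D arm and the anticodon arm, was at 5.29, 5.68, 5.74 and 5.40 in wild type and 5.92, 5.54, 6.06 and 5.96 in transgenic cDC, so that 3 transgenic arrays lay above the wild-type range. Its log2 difference was 0.35 (SE 0.15, limma adjusted p = 0.357). Its relative Trmt1l had the lowest difference of the family, with levels of 9.02, 9.19, 9.12 and 9.06 in wild type and 8.97, 8.84, 9.03 and 8.71 in transgenic cDC. Here 3 transgenic arrays lay below the wild-type range and the difference was -0.21 (SE 0.11, 95% interval -0.45 to 0.04, limma adjusted p = 0.467).

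The remaining Trmt genes differed little beside their spread. Trmt5, which methylates the guanine next to the anticodon, varied most, from 5.50 to 6.70 in wild type and from 5.79 to 7.02 in transgenic cDC, with replicate 4 the highest in both groups. Trmt12, which acts in making wybutosine, a bulky base at that place in phenylalanine tRNA, was at 4.89, 5.30, 5.22 and 5.47 and at 5.14, 5.36, 5.00 and 5.59, a difference of 0.05 (SE 0.16). Trmt44, a ribose methyltransferase, differed by 0.14 (SE 0.14). Trmt9b was near the dim end of the scale, at 4.01, 4.08, 4.02 and 3.97 and at 3.89, 4.03, 3.83 and 4.01, and differed by -0.08 (SE 0.10).

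Among the Mettl genes, the writer subunit Mettl14, which holds the RNA beside the catalytic METTL3, had the lowest difference. Its level was 7.72, 7.73, 7.54 and 7.53 in wild type and 7.47, 7.38, 7.34 and 7.21 in transgenic cDC. The ranges lay side by side without overlap, and the log2 difference of -0.28 (SE 0.11, 95% interval -0.52 to -0.04) did not pass (limma adjusted p = 0.277). Over the alternatives run it stayed between -0.32 and -0.23, and none passed. Mettl3 had no probe set of its own. The probe set that names both Mettl3 and Tox4 was at 7.86, 7.80, 7.73 and 7.90 in wild type and at 8.02, 8.48, 8.14 and 8.72 in transgenic cDC, and which of these genes gives the signal cannot be told. In a fit over every probe set it differed by 0.52 (SE 0.15, limma adjusted p = 0.188), in the opposite direction to Mettl14 and past the threshold in neither case. Mettl16, which marks the U6 small nuclear RNA, was at 6.44 ± 0.29 and 6.71 ± 0.47 (SD, n = 4), with transgenic replicates 1 and 3 at 7.10 and 7.08 and replicates 2 and 4 at 6.52 and 6.13.

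Mettl4, an adenosine methyltransferase of the U2 small nuclear RNA, was at 6.73, 6.97, 6.39 and 6.69 in wild type and 7.19, 7.24, 7.23 and 7.12 in transgenic cDC. The transgenic arrays were tightly grouped above the wild-type arrays, and the difference of 0.50 (SE 0.13, 95% interval 0.21 to 0.79) did not pass (limma adjusted p = 0.0948). The rRNA methyltransferase Mettl5, a partner of TRMT112, shared its probe set with Ssb. That probe set was at 8.45 ± 0.15 and 8.88 ± 0.36 (SD, n = 4), with overlapping groups. The 3-methylcytosine enzymes are Mettl2 and Mettl6, which act on tRNAs, and Mettl8, whose protein is mitochondrial. Mettl2 had the largest difference of its family, at 5.53, 5.75, 5.44 and 5.49 in wild type and 6.82, 5.82, 5.79 and 6.41 in transgenic cDC. Transgenic replicates 1 and 4 were high and replicates 2 and 3 lay just above wild type, and the difference of 0.66 (SE 0.22) did not pass (limma adjusted p = 0.187). Mettl6 and Mettl8 differed by 0.06 (SE 0.13) and 0.15 (SE 0.10).

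Mettl1, the catalytic subunit of the enzyme that makes 7-methylguanosine in tRNA, was at 4.78 ± 0.11 and 4.95 ± 0.21 (SD, n = 4), and the groups overlapped. The genes of the mitochondrial ribosome, Mettl15, which methylates the small subunit rRNA, and Mettl17, an assembly factor, differed by 0.13 (SE 0.12) and 0.09 (SE 0.13). None of these passed.

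The protein methyltransferases had a median log2 difference of 0.19, with 6 of 8 above 0 and 0 past the threshold by limma. At an unadjusted p below 0.05, 2 were higher and 0 lower, beside 6.56% and 6.60% of all genes. Mettl22, a lysine methyltransferase, was at 4.47, 4.35, 4.78 and 4.69 in wild type and 4.90, 5.35, 5.23 and 5.16 in transgenic cDC. These levels were low but did not overlap, with a difference of 0.59 (SE 0.14, 95% interval 0.29 to 0.90, limma adjusted p = 0.0668). Mettl18, which methylates a histidine of a ribosomal protein, differed by 0.45 (SE 0.20), with transgenic replicate 3, at 4.57, inside the wild-type range of 4.43 to 5.02. Mettl21e was at 3.36, 3.32, 3.48 and 3.27 and at 3.57, 3.52, 3.50 and 3.68, near the floor of the array, where a difference of 0.21 (SE 0.10) is hard to read. Its relative Mettl21c was also dim, at 3.65, 3.57, 3.59 and 3.71 and at 3.51, 3.12, 4.38 and 3.28, a difference of -0.06 (SE 0.23) with transgenic replicate 3 above the other arrays. Mettl9, a histidine methyltransferase, was at 7.09, 7.02, 7.20 and 7.42 and at 7.18, 7.38, 7.23 and 7.65. Its groups overlapped, with a difference of 0.18 (SE 0.14), and its dimmer probe set gave 0.08 (SE 0.12). Mettl23, an arginine methyltransferase of histones, was at 7.10, 7.09, 6.97 and 7.15 and at 7.01, 7.53, 7.36 and 7.65, so transgenic replicate 1 lay within the wild-type range and the other 3 above it. The difference was 0.31 (SE 0.14, limma adjusted p = 0.394), while the probe set that names both Jmjd6 and Mettl23 differed by -0.18 (SE 0.12). Mettl11b and Mettl21a differed by -0.04 (SE 0.14) and 0.02 (SE 0.15).

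Of the Mettl7 genes, whose products sit in membranes of the endoplasmic reticulum and lipid droplets, Mettl7a1 was at 5.84, 5.91, 5.95 and 5.77 in wild type and 6.25, 6.27, 6.43 and 6.15 in transgenic cDC. Both groups were narrow and apart, with a difference of 0.41 (SE 0.11, 95% interval 0.17 to 0.64), but it did not pass (limma adjusted p = 0.0942). This value is uncertain because Mettl7a1, Mettl7a2 and Mettl7a3 are close copies that can share probes. Mettl7a3 had the widest interval of all members, -0.57 to 0.83, and Mettl7b differed by 0.12 (SE 0.12). Of the 4 genes with no role assigned, Mettl27 was at 5.80, 6.45, 6.08 and 6.23 and at 5.84, 5.87, 6.12 and 5.87, a difference of -0.21 (SE 0.15), and Mettl25, Mettl26 and Mettl24 differed by 0.37 (SE 0.18), 0.36 (SE 0.20) and 0.03 (SE 0.18).

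As a description, the median log2 difference was 0.24 over the Trmt genes and 0.16 over the Mettl genes, beside 0.00 over all 22180 genes. Of the members, 13 of 15 and 20 of 24 were positive, beside 11020 of all genes. With 1 array left out, 11 to 13 Trmt genes and 17 to 20 Mettl genes were positive. The Trmt median was 0.48 over the 7 members with a mean of at least 6, where all 8560 such genes had a median of -0.01. For Mettl it was 0.15 over 12 such members. A log2 difference of at least 0.30 was seen in 40.0% of Trmt and 33.3% of Mettl genes, beside 9.69% of all genes, and one of at least 0.50 in 3 of 15 and 2 of 24, beside 3.70%. No member was at -0.30 or lower, beside 9.03% of all genes. No test was made of these family values, since the families were put forward with the comparison known. Of the other probe sets left out because they name several genes, Trmt61b with Spdya differed by 0.28 (SE 0.14) and 0.27 (SE 0.20) on its 2 probe sets, Trmt13 with Lrrc39 by 0.21 (SE 0.15), and Mettl7a2 with Methig1 and Higd1c by -0.03 (SE 0.13).

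**Figure D3:**
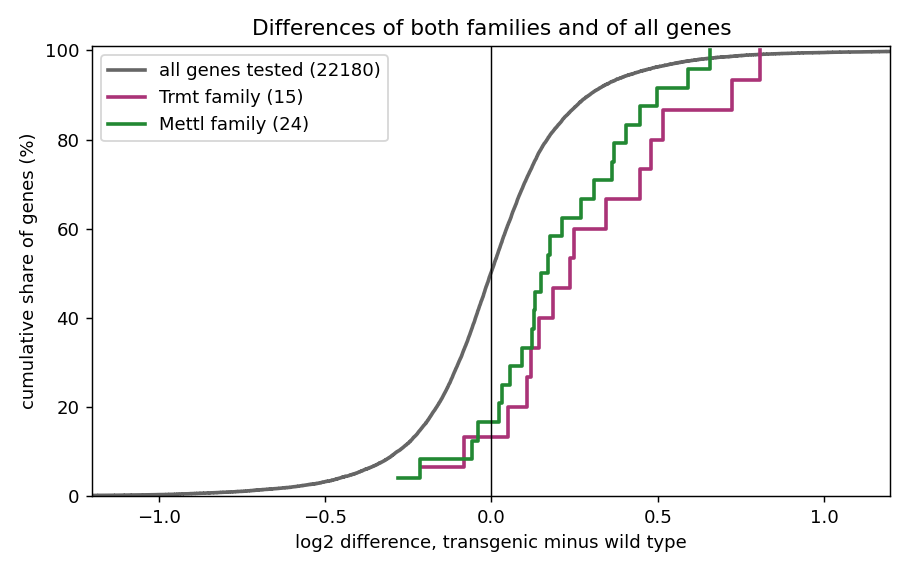
Cumulative share of genes (%) against the log2 difference, transgenic minus wild type, for the 15 Trmt genes, the 24 Mettl genes and all 22180 genes; the horizontal axis is limited to the central range. The curves of both families lie to the right of that of all genes, with medians of 0.24, 0.16 and 0.00.

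The arrays were not alike within a group. On each array, the deviation of each gene from its own mean over 8 arrays had a Trmt median of -0.32, -0.13, -0.08 and -0.01 on wild-type replicates 1 to 4 and of 0.02, 0.11, 0.07 and 0.26 on transgenic replicates 1 to 4. Wild-type replicate 1 was lowest and transgenic replicate 4 highest, while wild-type replicate 4 and transgenic replicate 1 were nearly level. The Mettl medians were -0.06, -0.11, -0.10 and -0.13 in wild type and 0.03, 0.09, 0.08 and 0.15 in transgenic cDC. Transgenic replicate 4 was also the array least like its group over all probe sets, with a mean correlation of 0.970 beside 0.976 to 0.979 for the others, and with the narrowest spread of values (SD 2.00, beside 2.07 to 2.11). Leaving it out gave medians of 0.21 for Trmt and 0.13 for Mettl and kept Trmt2a past the threshold (limma adjusted p = 0.0358). When arrays were weighted it had the lowest weight, 0.352, beside 0.923 to 1.427 for the other arrays. That fit gave the same medians and also kept Trmt2a past the threshold (limma adjusted p = 0.0154). Its part in the family values was not tested further.

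**Figure D4:**
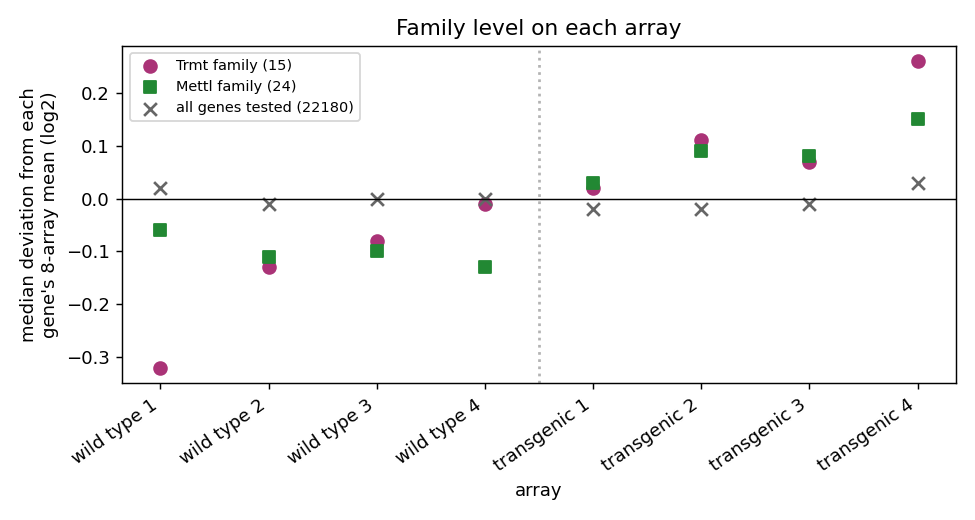
Median over each family of the deviation of a gene from its own 8-array mean (log2), on each of the 8 arrays, beside the same median over all genes. Both families lie below 0 on all wild-type arrays and above 0 on all transgenic arrays, while all genes stay between -0.02 and 0.03.

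Other genes of RNA methylation and of the S-adenosylmethionine cycle showed 0 calls by limma in 55 measured genes of 6 lists. At an unadjusted p below 0.05, 13 were higher and 1 lower, beside 6.56% and 6.60% of all genes at that level. The 1 lower gene and 2 of the 13 higher genes were in the S-adenosylmethionine list. Of 16 genes listed as other tRNA methyltransferases and partners 10 were positive with a median of 0.15. The highest statistic was that of Alkbh8, a wobble uridine methyltransferase that works with TRMT112 (0.43, SE 0.12, limma adjusted p = 0.119). The lowest was that of Nsun4 (-0.36), which, like Mrm1 of the same list, methylates mitochondrial rRNA rather than tRNA. Of 8 genes listed as other rRNA methyltransferases 8 were positive with a median of 0.24, beside 49.7% of all genes that were positive. That count depends on the list, since the rRNA methyltransferase genes Nsun4 and Zcchc4 (-0.04) were negative and stood in other lists. Dimt1, which dimethylates the small subunit rRNA, was at 5.20, 4.78, 5.27 and 4.63 in wild type and 5.72, 6.16, 5.53 and 6.40 in transgenic cDC. Its groups did not overlap and its difference of 0.98 (SE 0.21) lay just outside the threshold (limma adjusted p = 0.0514), and Mrm2 had the lowest statistic (0.07).

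Among 8 genes listed with the m6A writer the median was 0.09, with Rbm15 highest (0.51, limma adjusted p = 0.238) and Zc3h13 lowest (-0.23, limma adjusted p = 0.503). Pcif1 (0.02) and Zcchc4 (-0.04) of this list encode separate methyltransferases and not subunits of the writer. Among 9 m6A erasers and readers it was 0.02, with the demethylase Alkbh5 highest (0.68, limma adjusted p = 0.174) and the RNA-binding protein gene Hnrnpc lowest (-0.21, limma adjusted p = 0.568). Of 7 cap and small RNA methyltransferases 6 were positive with a median of 0.22; the cap methyltransferase Cmtr2 had the highest statistic (0.45, limma adjusted p = 0.0836) and Henmt1 the lowest (-0.21). Of 7 genes listed with the S-adenosylmethionine cycle 6 were positive with a median of 0.24. Methionine synthase, Mtr, was at 0.52 (limma adjusted p = 0.134) and Ahcyl1 at -0.57 (limma adjusted p = 0.108).

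Markers of the sorted cells and of other cells were read beside these values. The cDC genes Flt3, H2-Ab1 and Ccr7 were bright in both groups (wild-type and transgenic means of 11.11 and 10.74, 13.00 and 12.75, 12.99 and 13.06), with all transgenic arrays below wild type for Flt3 and H2-Ab1 but not for Ccr7, while Itgae and Itgam, which encode the sorting markers CD103 and CD11b, were dim (5.66 and 5.40, 5.57 and 5.58). Of 9 cDC genes 0 passed by limma, with 3 lower (Flt3, H2-Ab1 and Zbtb46) and 0 higher at an unadjusted p below 0.05. Over all genes that level held 6.60% lower and 6.56% higher, and 4.94% had all transgenic arrays below wild type. Sirpa had the highest cDC statistic (0.25) and Zbtb46 the lowest (-0.42). Of 8 macrophage and monocyte genes, Adgre1 (1.29, SE 0.19) and Csf1r (1.16, SE 0.19) rose and Fcgr1 had the lowest statistic (-0.03). At an unadjusted p below 0.05, 5 were higher and 0 lower, among them Ly6c2, with the largest log2 difference of the list (1.81, limma adjusted p = 0.346). Ly6c2 was at 8.28, 10.38, 5.81 and 7.11 on transgenic replicates 1 to 4, and replicate 3 lay inside the wild-type range of 5.46 to 6.83. The mean of the macrophage and monocyte list was 5.95 to 6.20 in wild type and 6.33 to 7.41 in transgenic cDC. One gene rose in each of 3 lists: Klrd1 of 7 NK cell genes, with list means of 5.91 to 7.16 and 6.42 to 7.58; Bst2 of 6 plasmacytoid dendritic cell genes, with 6.18 to 7.11 and 6.62 to 8.04; and Cd4 of 7 T cell genes, with 5.26 to 5.93 and 5.43 to 5.60. The lowest statistics in these lists were those of Ncr1 (0.14), Tcf4 (-0.21) and Cd8a (-0.75), which is also in the cDC1 list. In the macrophage, NK, plasmacytoid, T cell, B cell, cDC1 and cell cycle lists the highest transgenic mean was that of replicate 2. In the cDC list it was that of replicate 1 (9.33). None of 6 cDC1 genes (Cadm1 highest, Irf8 lowest; 0 higher and 2 lower at an unadjusted p below 0.05) and none of 5 B cell genes (Cd79b highest, Ms4a1 lowest; 0 at that level) passed by limma. The T cell receptor genes Cd3d, Cd3e and Cd3g had mean levels of 5.31, 5.56 and 4.07 over the 8 arrays; array values have no true zero, so these levels do not show whether T cells were present.

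Of 17 cell cycle genes, Mki67, which marks dividing cells, had a log2 difference of -1.13 (SE 0.22) and fell (adjusted p = 0.0350 by limma), from 7.85, 8.29, 8.17 and 8.49 to 7.51, 7.33, 6.47 and 6.96, and 16 did not pass. The call was lost on leaving out any one array but transgenic replicate 1, with adjusted p up to 0.103 in limma. The replication gene Mcm4 had the highest statistic (0.39, limma adjusted p = 0.149). Over all genes 0.848% fell. The part of other cells and of cell division in the Trmt and Mettl values was not tested. Csf1r was lost without wild-type replicate 1, 2 or 3 (limma adjusted p = 0.0649, 0.0668 and 0.0648), and Bst2 without wild-type replicate 1, 2 or 3 or transgenic replicate 2 or 3 (0.0702, 0.0719, 0.0705, 0.0555 and 0.0505 in limma).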

How the data were processed

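RNA of sorted cells was amplified and biotin-labelled, per the labels' protocols. The deposited values are log2 signals of probe sets; the submitters' processing notes name RMA and Partek, without versions. Any filter was not given in the sources used here. Array medians ran from 5.04 to 5.15, values were used as deposited, and dim probe sets understate changes. Of 34390 probe sets, 23521 name 1 gene, 1814 several and 9055 none in the platform's annotation; only the first kind was tested. Of these, 23328 were found by gene number in the RefSeq table (GRCm38.p6), which changed 0 symbols. No filter on signal was used.

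The 8 arrays were grouped by genotype (4 and 4) and fitted over all 22180 genes with lmFit and eBayes of limma 3.58.1 (R 4.3.3, statmod 1.5.0), with Benjamini-Hochberg adjustment and a threshold of 0.05; "rose", "fell" and "passed" mean past it. Arrays have no read depth; their number limits precision. The fit was tested on 20 simulated data sets with the genes' own means and spreads and 200 changed genes each. It called 28.4% of changes of 1.5-fold and 73.5% of changes of 2-fold, and 5.15% of calls were false. Most changes of 1.5-fold were thus missed. Promoters were matched by gene number for 29 of 39 members. Figures used matplotlib 3.10.9 in Python 3.11.15.

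The members and gene lists were chosen with earlier results of these data known. Any member could be named; all 8 values were given for members past the threshold, those with the 3 highest and 3 lowest differences and the 3 brightest of each family, and, chosen after their values were seen, Trmt6, Trmt1, Mettl7a1, Mettl21e, Dimt1 and the Mettl3 probe set. Of other lists, calls and the highest and lowest statistics were named; Itgae, Itgam, Flt3, H2-Ab1, Ccr7, Ly6c2 and the Cd3 genes were named after their values were seen. Alternatives were other variance moderation, filters on dim genes, normalization again, median centring, the mean over probe sets, weights for arrays, a block for the replicate number, leaving out each array, and, chosen after seeing the data, every probe set fitted on its own. Same-numbered arrays of the groups had deviations that correlated at -0.03 to 0.08, so the values showed no pairing by number. Such correlations cannot tell whether same-numbered pools shared a litter or were handled together.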

Additional observations from a re-analysis of the deposited data

Results flagged for a closer look

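In 5 of 78 groups of 4 arrays, 1 array stood far from the other 3 by Dixon's ratio at its 95% critical value; chance gives such a value in about 1 of 20 groups. Trmt61a was at 5.11 on transgenic replicate 4 and at 4.54 to 4.58 on the other transgenic arrays. Mettl1 was at 5.26 on transgenic replicate 4, beside 4.81 to 4.88. Mettl25 was at 5.37 on transgenic replicate 1, beside 4.95 to 5.01. Mettl27 was at 6.12 on transgenic replicate 3, beside 5.84 to 5.87. Trmt6 was at 7.47 on wild-type replicate 2, beside 6.88 to 6.98.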

How the results depend on the processing

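Of the 39 members, 29 kept the sign of their difference in every alternative run on them, and 2, Trmt2a and Trmt112, passed the threshold in any. Trmt2a passed in 13 of 18 alternatives. Without variance moderation 0 Trmt genes passed; with only genes of a mean of at least 6, 2 passed and the Trmt median was 0.48, over fewer genes, and with only genes at or above the median gene it was 0.40. Leaving out 1 array gave 0 to 1 Trmt calls, Trmt medians of 0.21 to 0.31 and Mettl medians of 0.13 to 0.21. No Mettl gene passed in any alternative, and no Trmt gene fell. Of the 119 genes of the other lists, 5 rose and 1 fell, beside 0.839% and 0.848% of all genes. Without variance moderation the counts were 0 and 0, and with every probe set on its own 5 and 0. Leaving out 1 array gave 3 to 5 that rose and 0 to 1 that fell. With the replicate block, 3 rose and 0 fell, Trmt2a stayed past the threshold (limma adjusted p = 0.0418), and 187 genes passed in all, beside 374; only replicate 3 correlated best with its own number. The causes of these changes were not tested. Over all genes, calls ran from 35 without variance moderation to 534 with array weights, and from 106 to 379 with 1 array left out. With 4 pools a group, members near the floor of the array are hard to tell from background.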

Other observations

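Of the 29 members with a promoter entry, 9 (31.0%) had a gene on the other strand that starts within 1000 bases upstream, so that the pair is transcribed away from a shared stretch, beside 12.3% of the 27025 genes in the table. For 8 of them the neighbour was measured, and 4 pairs had differences of the same sign and 4 of opposite sign. Trmt2a starts 189 bases from Ranbp1, a regulator of nuclear transport, which was at 7.71, 7.59, 7.55 and 7.88 in wild type and 7.75, 8.18, 7.87 and 8.12 in transgenic cDC. These ranges overlapped, and Ranbp1 differed by 0.30 (SE 0.13, limma adjusted p = 0.371), beside 0.81 for Trmt2a; the difference between the neighbours was not tested. Mettl18 starts 93 bases from BC055324, and they differed by 0.45 and 0.43. Trmt5 starts 137 bases from Slc38a6, and they differed by 0.19 and -0.34. None of the 8 neighbours passed by limma. These pairs were looked at after the data were seen.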
